A study of Mus musculus with 2 samples.

Results

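Open chromatin at 8 genes for transcription factors and cofactors of the adrenal primordium was mapped with DNase-seq of adrenal glands from female mice. The genes were chosen by name (Nr0b1, Cited2, Wt1, Gata4, Gata6, Tcf21, Nr2f1 and Nr2f2) out of 21938 protein-coding genes annotated. Each was taken with its gene body and 100 kb on each side on mouse build mm10 with the GENCODE M21 annotation, a total of 1789 kb. DNase-seq reads the ends left where the enzyme DNase I has cut accessible DNA in isolated nuclei. The mice were of strain B6CASTF1/J, the first-generation offspring of C57BL/6J and CAST/EiJ, and were 10 days old. The whole gland was used, and the label of each sample names 3 females. There was 1 group, with biological replicates 1 and 2, and no treatment, mutant or control. The values below therefore describe the loci in each replicate, and no test between conditions was possible.

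The adrenal cortex and the gonads arise together from the coelomic epithelium of the embryo, in cells that carry the transcription factors Wt1 and Gata4. Cited2, a coactivator without a DNA-binding domain, acts with Wt1 there to raise the steroidogenic factor SF-1, the product of Nr5a1. Nr0b1 encodes DAX-1, a nuclear receptor that lacks the usual DNA-binding domain and represses SF-1. Gata6 is the GATA factor that remains in the postnatal cortex of the mouse, where Gata4 is low. Tcf21 is a basic helix-loop-helix factor of the capsule and stroma, and Nr2f1 and Nr2f2 encode the orphan receptors COUP-TFI and COUP-TFII, which are strong in mesenchyme.

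The promoters of Cited2 and Gata6 were the highest of the 8, and those of Wt1 and Tcf21 were not open in both replicates. A promoter peak is here a deposited peak within 1 kb of any annotated start. A distal peak lies farther than 1 kb from every annotated start of any gene, and a shared peak overlaps between the replicates. Each shared peak was placed by the merged region of its overlapping peaks, so its peak in 1 replicate may lie beyond 1 kb. Peaks are those of the shorter of 2 deposited lists per sample unless the longer is named. Shared promoter peaks were found at 6 of 8 genes (75%), against 63.6% of all protein-coding genes. The 6 genes were Cited2, Gata6, Nr2f1, Nr2f2, Gata4 and Nr0b1. By replicate, 6 genes had a promoter peak in replicate 1 and 7 in replicate 2. No gene of the 8 had one in replicate 1 only, against 3.68% of protein-coding genes. Around the 8 genes lay 60 shared peaks, of which 19 were promoter peaks of the 8 genes, 17 were promoter peaks of neighbouring genes and 24 were distal. Another 53 peaks were seen in replicate 1 only and 21 in replicate 2 only.

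The height of a peak is a signal that the authors normalised, given once per peak. Across the genome replicate 1 had 98813 peaks and replicate 2 had 55135, with 48299 shared, and shared peaks had a median height ratio of 1.66 for replicate 1 over replicate 2. Known tissue markers were read in the same way, beside the 63.6% of all protein-coding genes with a shared promoter peak. Which cell types were present was not tested. Promoter peaks were shared at 5 of 7 cortex markers, 4 of 7 medulla markers, 6 of 7 capsule and fibroblast markers, 2 of 5 endothelial markers, 4 of 6 gonad markers, 2 of 4 mesothelium markers, 3 of 4 brown fat markers and 2 of 7 kidney markers. Of the mesothelium markers counted, Lrrn4 lay within 1 kb of a peak in replicate 1 only. The steroid enzyme gene Hsd3b1, the chromaffin enzyme gene Pnmt and the stromal gene Lum had no promoter peak in either replicate's shorter list. In a whole gland, few cells with an open site and weak opening in many cells cannot be told apart.

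**Figure D1:**
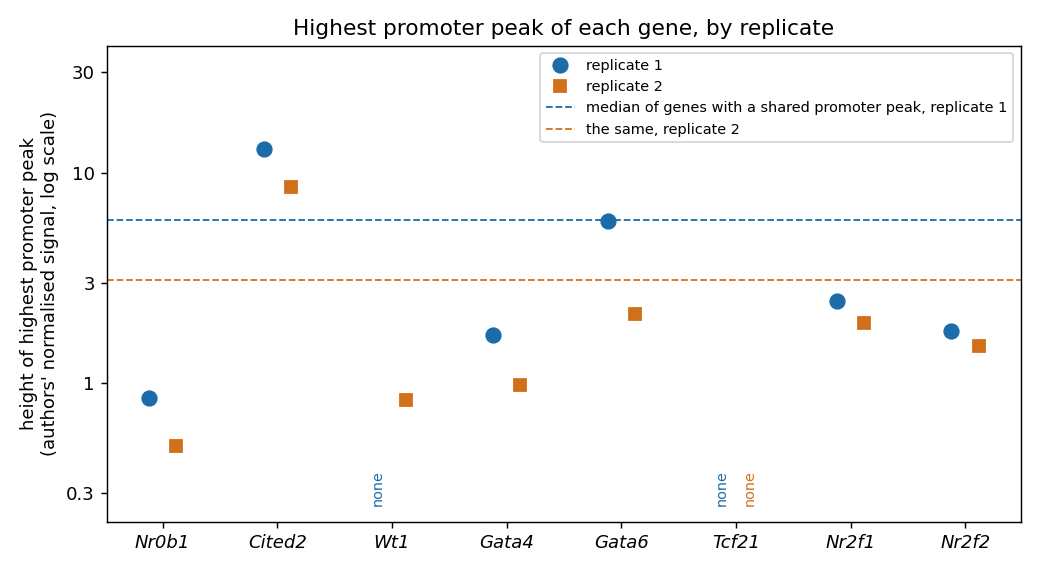
Height of the highest promoter peak called in each replicate (y axis, authors' normalised signal, log scale) for each of the 8 genes (x axis). Circles are replicate 1, squares are replicate 2, and dashed lines are the medians of genes with a shared promoter peak, 5.95 in replicate 1 and 3.11 in replicate 2. Cited2 lies above both lines, Gata6 is just under the line of replicate 1, and the others lie below.

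Cited2 had the highest promoter of the 8 genes. Its peak at chr10:17723021-17723300, which covers the 3 annotated starts, had a height of 13.0 in replicate 1 and 8.56 in replicate 2. These heights exceeded those of 93.0% of genes with a shared promoter peak in replicate 1 and of 99.7% in replicate 2. Another peak, centred 777 bp upstream of the most 5′ start, reached 7.57 in replicate 1 and 4.95 in replicate 2. The last of its 3 promoter peaks, centred 1053 bp downstream in an exon, reached 2.61 and 2.07. All 2025 bases within 1 kb of the Cited2 starts were listed at a false discovery rate (FDR) of at most 0.001 in both replicates, so that the promoter was open over its whole width.

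The Cited2 promoter and the highest distal site of the gene are shown because each held footprints in both replicates. Footprints are short stretches inside open chromatin that DNase I cut less than their surroundings, as called by the authors. Capitals in the sequences given here and below mark bases inside footprints of both replicates. All sequences are from the mm10 reference, plus strand, 5′ to 3′. The promoter stretch, chr10:17723021-17723217, ends at the base before the most 5′ start. It held 3 such stretches of 21 to 49 bases, and the first of them took in 5 of the 6 bases of a GGGCGG word, the core of SP1 sites. The distal site, chr10:17733161-17733360, was centred 10043 bp downstream of the start and lay between genes. It held a match to the 12-letter core of the motif of CTCF, an insulator protein.
Cited2 promoter: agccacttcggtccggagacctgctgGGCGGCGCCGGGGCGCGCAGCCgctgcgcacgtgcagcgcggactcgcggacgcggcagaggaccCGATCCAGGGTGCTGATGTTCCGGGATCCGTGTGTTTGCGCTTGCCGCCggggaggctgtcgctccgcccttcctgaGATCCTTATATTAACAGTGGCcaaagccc
Cited2 distal site: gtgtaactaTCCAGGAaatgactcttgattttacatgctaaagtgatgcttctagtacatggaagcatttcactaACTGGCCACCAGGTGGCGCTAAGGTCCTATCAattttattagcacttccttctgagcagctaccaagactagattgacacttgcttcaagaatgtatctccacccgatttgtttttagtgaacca

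The distal site had a height of 2.41 in replicate 1 and 1.12 in replicate 2. All 12 bases of its CTCF match lay within a footprint of 32 bases seen in both replicates. The other shared distal peaks of Cited2 were lower. That centred 4603 bp downstream had heights of 1.18 and 0.713 in replicates 1 and 2, and that centred 1367 bp upstream had 1.54 and 0.607. Cited2 thus had 3 shared distal peaks, the same as the median of 3 per protein-coding gene, all within 10043 bp of its start. In addition, 5 peaks were seen in replicate 1 only and 0 in replicate 2 only.

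Nr0b1 had a low promoter with 3 shared peaks and no shared distal site. Its 3 promoter peaks on chromosome X reached 0.849, 0.394 and 0.562 in replicate 1, along the gene, and 0.502, 0.465 and 0.390 in replicate 2. The highest, at chrX:86191621-86191920, covers the only annotated start, and the other 2 lie in exons of the gene. By height this promoter exceeded 4.30% of genes with a shared promoter peak in replicate 1 and 1.51% in replicate 2. By the share of its promoter that was open it ranked high among all protein-coding genes. Bases at an FDR of at most 0.001 made up 48.1% of its promoter in replicate 1 and 58.5% in replicate 2, more than in 91.8% and 96.0% of protein-coding genes. The median gene had 12.2% in replicate 1 and 11.1% in replicate 2. This share is taken over the bases within 1 kb of every start, and Nr0b1 has 1 start. Among the 4882 genes with 1 start, it exceeded 87.6% in replicate 1 and 92.9% in replicate 2. In number of such bases, 963 and 1171, it exceeded 65.9% and 78.9% of protein-coding genes. These sets include genes with no promoter peak, unlike the set for height. A promoter peak was absent from both replicates at 31.8% of protein-coding genes. The median gene with 1 start had 0% in replicate 1 and in replicate 2. The ranks for height and for extent are therefore not on the same scale. Elsewhere in the window of Nr0b1, a site in each replicate was seen with no partner in the other, at heights of 0.341 in replicate 1 and 0.242 in replicate 2. Of all protein-coding genes, 17% had no shared distal peak in their windows.

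The 143 bases of the peak before the start of Nr0b1, chrX:86191621-86191763, are shown as the sequence of a low promoter. They held no footprint of both replicates, so that all letters are in lower case, although the whole peak held 1 after the start. The stretch held 10 CG dinucleotides and no match to GGGCGG.
Nr0b1 promoter: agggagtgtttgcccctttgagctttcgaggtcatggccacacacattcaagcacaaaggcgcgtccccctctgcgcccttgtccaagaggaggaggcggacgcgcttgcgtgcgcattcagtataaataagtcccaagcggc

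**Figure D2:**
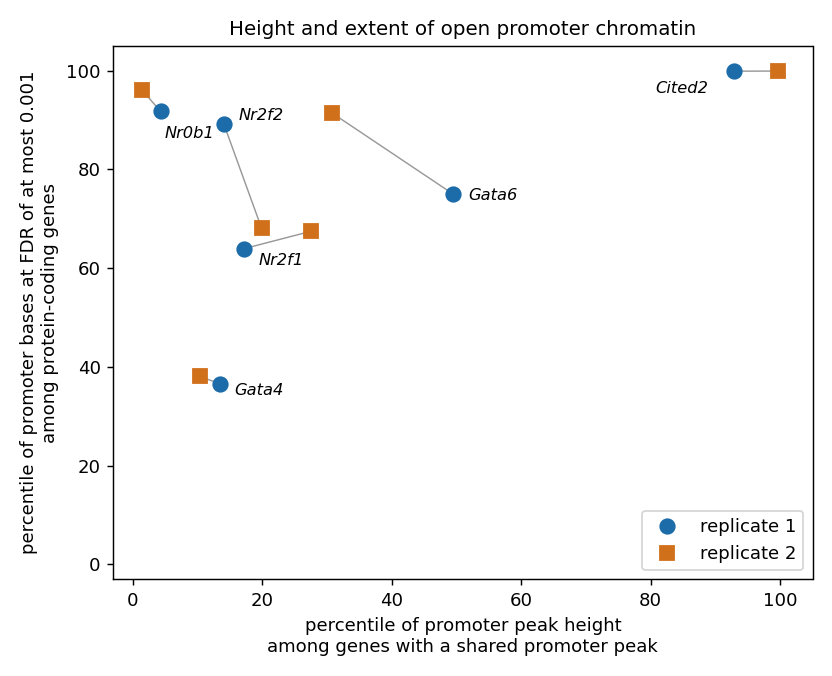
Percentile of the highest shared promoter peak's height among genes with a shared promoter peak (x axis) and percentile of the share of promoter bases at an FDR of at most 0.001 among protein-coding genes (y axis), for the 6 genes with a shared promoter peak. Circles are replicate 1, squares are replicate 2, and a grey line joins the values of a gene. The axes rank genes in different sets, and that of the y axis includes genes with no promoter peak. Cited2 is high on both axes, Gata4 is low on both, and Nr0b1 is at the upper left, low in height at 4.30 and 1.51 and high in extent at 91.8 and 96.0.

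Wt1 alone of the 8 genes had promoter peaks in 1 replicate and not in the other. In the shorter peak list, in which almost all peaks contained bases that pass an FDR of 0.001, its promoter held 0 peaks in replicate 1 and 4 in replicate 2. The 4 peaks, between chr2:105126361 and chr2:105127777, reached 0.837, 0.527, 0.750 and 0.545. A promoter peak in replicate 2 with none in replicate 1 was seen at 0.675% of protein-coding genes. Bases at an FDR of at most 0.001 numbered 0 in replicate 1 and 1312 in replicate 2, while bases listed under 0.05 numbered 260 and 1708. In the longer peak list, in which almost all peaks contained bases listed under 0.05, replicate 1 had a Wt1 promoter peak with a height of 0.876, against 0.837 in replicate 2. The log2 ratio of these heights, replicate 1 over replicate 2, was 0.07, and −0.62 after subtraction of the longer list's median of 0.69. The height in replicate 1 was thus slightly higher as deposited and lower relative to shared peaks at large. The promoter covers the starts of Wt1 and of the antisense gene Wt1os, and DNase-seq cannot tell them apart.

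Wt1 is also a factor of kidney podocytes, and the kidney lies beside the gland. Of 7 kidney markers, 2 had a promoter peak in replicate 1 and 4 in replicate 2, and their summed promoter heights were 12.3 in replicate 1 and 7.85 in replicate 2. The slit diaphragm gene Nphs1 had a peak of 0.620 in replicate 2 and none in replicate 1. Pax2, a kidney lineage factor, had 0.614 in replicate 2 and none in replicate 1. Pax8 and the tubule genes Umod and Slc12a1 had no promoter peak in either. The longer list held Nphs1 and Pax2 peaks in replicate 1 at 0.354 and 0.468. The promoter bases of the kidney markers at an FDR of at most 0.001 summed to 2645 in replicate 1 and 4072 in replicate 2. Of the gonad markers, 4 of 6 had a promoter peak in replicate 1 and 5 of 6 in replicate 2, with summed heights of 10.5 and 7.56. In the shorter list Dmrt1 had a peak in replicate 2 only, at 0.446, and the longer list held one in replicate 1 at 0.281. The part of such cells in the Wt1 result was not tested.

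Of the distal sites around Wt1, 4 were shared, 4 were seen in replicate 1 only and 0 in replicate 2 only. The highest was a site centred 17528 bp upstream of the most 5′ start, in an intron of Wt1os, with heights of 4.86 in replicate 1 and 1.58 in replicate 2. A site centred 97518 bp upstream had 1.72 and 0.725, and sites in introns of the neighbouring gene Them7, centred 102053 and 103982 bp downstream, had 1.70 and 0.713 and then 1.35 and 1.17. None of the 4 had Wt1 as the nearest coding gene by its starts, so that their link to Wt1 rests on the window alone. All 4 held footprints of both replicates.

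The upstream site, chr2:105108901-105109100, is shown as the highest distal site of Wt1, and the site at chr2:105230421-105230600 for its CTCF match. In the upstream site, 3 stretches of 7 to 23 bases lay inside footprints of both replicates, and the longest took in 3 of the 6 bases of an E-box word, CATCTG. E-boxes of this form can be bound by Tcf21 and by other basic helix-loop-helix factors. In the far site, a footprint of 31 bases covered all 12 bases of a CTCF match, which reads CCACAAGGGGGC on the minus strand.
Wt1 upstream site: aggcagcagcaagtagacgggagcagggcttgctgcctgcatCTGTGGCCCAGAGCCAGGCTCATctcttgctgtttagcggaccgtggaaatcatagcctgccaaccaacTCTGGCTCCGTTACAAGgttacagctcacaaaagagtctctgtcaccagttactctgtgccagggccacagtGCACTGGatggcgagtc
Wt1 far downstream site: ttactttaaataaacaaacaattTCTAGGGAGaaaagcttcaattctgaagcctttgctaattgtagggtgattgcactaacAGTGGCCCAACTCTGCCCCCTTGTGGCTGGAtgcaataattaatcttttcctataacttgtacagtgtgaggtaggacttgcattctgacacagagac

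Tcf21 had no promoter peak in the shorter list in either replicate, as was the case for 31.8% of protein-coding genes. In the longer list, a promoter peak of 0.414 was present in replicate 1 and none in replicate 2. Within 1 kb of the Tcf21 starts, 220 bases were listed under an FDR of 0.05 in replicate 1 and 0 in replicate 2. Its GC content within 500 bp of the start was 53.1% and its CpG observed over expected 0.469, against a median of 0.553 for protein-coding genes. The only shared distal peak of the window, between genes and centred 43923 bp downstream, was low, at 0.715 in replicate 1 and 0.490 in replicate 2. It is shown as the sole shared site for which Tcf21 was the nearest coding gene, at chr10:22776161-22776340. It held 2 stretches inside footprints of both replicates, of 5 and 19 bases, and no match to any of the 10 motifs searched.
Tcf21 distal site: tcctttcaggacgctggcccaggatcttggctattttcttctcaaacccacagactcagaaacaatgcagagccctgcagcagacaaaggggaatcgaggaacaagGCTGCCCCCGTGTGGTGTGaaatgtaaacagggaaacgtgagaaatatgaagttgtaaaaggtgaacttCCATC

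Gata4 had a shared promoter peak at starts inside the gene and none at its most 5′ starts. This gene of 72771 bp has 5 annotated starts on the minus strand of chromosome 14, and its shared promoter peak, chr14:63245184-63245520, covered the starts at 63245248 and 63245271, 26340 bp downstream of the most 5′ start. The peak had heights of 1.70 in replicate 1 and 0.979 in replicate 2, above 13.5% and 10.4% of genes with a shared promoter peak. The starts at 63271124 and 63271692, the most 5′ ones, had no peak in the shorter list. There the longer list held a peak of 0.702 in replicate 1 and none in replicate 2. The start at 63213607 had no peak in either list. The promoter at the internal start held no footprint of both replicates.

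Gata4 had 3 shared distal peaks. A site centred 75711 bp downstream had the largest heights, 2.63 in replicate 1 and 1.93 in replicate 2, but its nearest start, 2025 bp away, is that of the DNA repair gene Neil2. A site in an intron of Gata4, centred 15601 bp downstream of the most 5′ start, had 2.27 and 1.50. A low site between genes, 86483 bp upstream, had 0.922 and 0.626. In replicate 1 only, 13 further distal peaks were seen around Gata4, and in replicate 2 only none.

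The intronic site, chr14:63256001-63256180, is shown as the highest distal site inside Gata4, and the upstream site, chr14:63358103-63358247, for its CTCF match. In the upstream site, 10 of the 12 bases of a CTCF match, CCACCAGGTGGC, lay in a footprint of 15 bases of both replicates. The same 12 letters made the CTCF match of the Cited2 distal site.
Gata4 intronic site: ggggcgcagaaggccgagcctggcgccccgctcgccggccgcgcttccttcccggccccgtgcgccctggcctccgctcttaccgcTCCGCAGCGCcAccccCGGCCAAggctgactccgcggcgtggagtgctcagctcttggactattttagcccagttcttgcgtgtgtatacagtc
Gata4 upstream site: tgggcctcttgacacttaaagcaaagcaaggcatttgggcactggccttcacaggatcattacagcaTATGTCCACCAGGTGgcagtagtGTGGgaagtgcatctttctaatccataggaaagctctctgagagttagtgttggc

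Gata6 had a broad promoter on chromosome 18 with 3 shared peaks. The peaks, centred 544 bp upstream and 397 and 1017 bp downstream of the most 5′ start, had heights of 2.07, 5.90 and 4.99 in replicate 1, and 1.24, 2.13 and 2.11 in replicate 2. The highest exceeded 49.5% of genes with a shared promoter peak in replicate 1 and 30.8% in replicate 2. Bases at an FDR of at most 0.001 made up 26.2% of the promoter in replicate 1 and 45.6% in replicate 2. The noncoding gene 1010001N08Rik has starts within 1 kb of all 3 peaks. In replicate 2 only, 3 more promoter peaks lay in exons of Gata6, 2117, 2916 and 7030 bp downstream, at heights of 0.936, 1.03 and 0.837. In the longer list, replicate 1 had peaks that overlap these places, with heights of 0.896, 0.896 and 0.989.

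The shared distal peaks of Gata6 lay 2631, 67956 and 75113 bp upstream. They reached 1.95, 1.12 and 0.896 in replicate 1, and 0.985, 0.682 and 0.521 in replicate 2. The nearest of them lies in an exon of 1010001N08Rik, and the farther ones lie between genes. The middle site held a CTCF match whose centre lay outside any footprint of both replicates.

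Nr2f1 and Nr2f2 had several moderate promoter peaks each. Nr2f1, on chromosome 13, had 4 shared promoter peaks. Their heights were 1.30 to 2.06 in replicate 1 and 0.973 to 1.93 in replicate 2. The lowest of them lay within 1 kb of a start by its replicate 1 peak alone. By itself, replicate 2 had 3 promoter peaks of Nr2f1. The highest lay in a UTR of Nr2f1, centred 423 bp downstream of the most 5′ start, with 2.06 in replicate 1 and 1.93 in replicate 2. A peak 814 bp upstream was called in replicate 1 only, at 2.45, and the longer list held it in replicate 2 at 0.973. The noncoding gene A830082K12Rik begins within 1 kb of 3 of the 4 shared promoter peaks. Farther from Nr2f1, 1974 bp upstream of its start, another promoter peak of A830082K12Rik reached 6.50 in replicate 1 and 2.50 in replicate 2, above all promoter peaks of Nr2f1.

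The shared distal peaks of Nr2f1 adjoined each other 36536 and 36076 bp downstream, within the neighbouring gene Fam172a. The intronic site had 3.18 in replicate 1 and 1.46 in replicate 2. The other, in a UTR of Fam172a, had 1.74 and 1.70. The intronic site, chr13:78163081-78163360, is shown as a high distal site without a footprint of both replicates. It has a GC content of 66.8% and 16 CG dinucleotides, with 2 GGGCGG words and 2 CCAAT words, the core of NF-Y sites, none of them in such a footprint.
Nr2f1 distal site: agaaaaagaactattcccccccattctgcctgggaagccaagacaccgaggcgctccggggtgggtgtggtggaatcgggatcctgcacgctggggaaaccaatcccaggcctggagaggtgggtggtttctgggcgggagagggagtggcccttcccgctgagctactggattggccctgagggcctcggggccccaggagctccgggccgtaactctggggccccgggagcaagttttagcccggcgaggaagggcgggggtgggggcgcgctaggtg

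Nr2f2 had the most shared distal peaks of the 8 genes. Its window held 8, more than those of 85.9% of protein-coding genes, or 3.72 per 100 kb, against a median of 1.39 for all genes. The highest distal peak of all the windows lay in an intron of Nr2f2, at chr7:70361641-70362180, with heights of 9.35 in replicate 1 and 4.38 in replicate 2. Sites in introns of the noncoding gene Gm29683, centred 66054 and 31634 bp downstream of the most 5′ start, had 3.94 and 1.33, then 3.32 and 2.39. The other 5 lay between 0.501 and 1.78 in replicate 1 and between 0.452 and 0.769 in replicate 2. The intronic peak is 1048 bp from the nearest Nr2f2 start, just past the 1 kb reach of a promoter. Among shared promoter peaks of the 8 genes, the farthest within that reach, at Nr0b1, is 897 bp from its start.

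The first 300 bases of the intronic peak, chr7:70361641-70361940, are shown because it was higher than every promoter peak of Nr2f2 in both replicates. They have a GC content of 63.7% and 32 CG dinucleotides. Footprints of both replicates covered 4 stretches of 2 to 24 bases, and a GGGCGG word, read on the minus strand, lay wholly inside 1 of them.
Nr2f2 intronic site: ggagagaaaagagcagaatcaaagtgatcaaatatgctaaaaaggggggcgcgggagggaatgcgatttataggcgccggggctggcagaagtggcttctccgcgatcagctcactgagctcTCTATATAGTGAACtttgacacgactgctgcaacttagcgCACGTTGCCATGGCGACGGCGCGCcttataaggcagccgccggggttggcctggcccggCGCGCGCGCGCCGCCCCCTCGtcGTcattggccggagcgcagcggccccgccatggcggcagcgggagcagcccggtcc

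The shared promoter peaks of Nr2f2 numbered 5, with heights of 0.775 to 1.76 in replicate 1 and 0.471 to 1.50 in replicate 2. The highest was centred 7800 bp downstream of the most 5′ start, in an exon next to internal starts. At the most 5′ start itself the peak was low, 0.775 in replicate 1 and 0.471 in replicate 2. Promoter bases at an FDR of at most 0.001 made up 43.2% in replicate 1 and 20.1% in replicate 2.

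**Figure D3:**
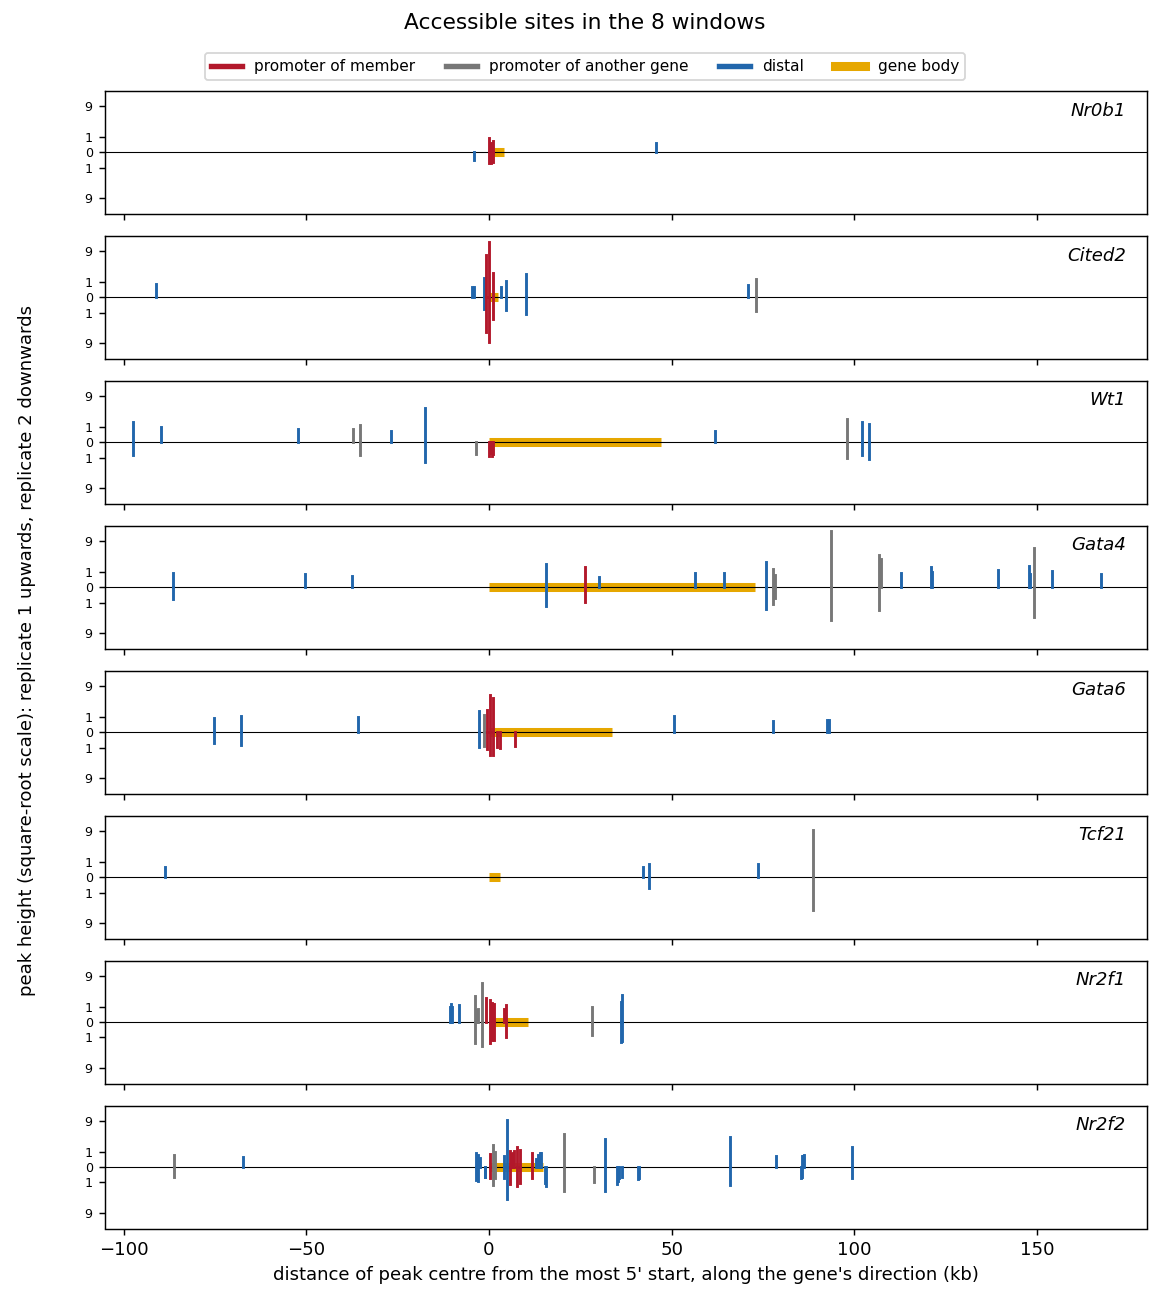
Deposited peaks within the 8 windows by distance of the peak's centre from the most 5′ start of the gene, along its direction (x axis, kb), with height (y axis, square-root scale) upwards for replicate 1 and downwards for replicate 2. Red lines are promoter peaks of the gene, grey lines promoter peaks of another gene, blue lines distal peaks, and yellow bars the gene bodies. Nr2f2 shows the densest set of blue lines, the distal peaks of Wt1 lie outside its gene body, and Nr0b1 and Tcf21 have few.

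Promoter peaks at separate places were common among these genes. Of the 8, 5 had 3 or more shared promoter peaks (Nr0b1, Cited2, Gata6, Nr2f1 and Nr2f2), against 7.3% of protein-coding genes and 5.5% of those with 1 to 8 starts. The heights were moderate. The 6 genes with a shared promoter peak had a median of 1.91 in replicate 1 and 1.71 in replicate 2, against 5.95 and 3.11 for all such genes. The fragments that a merged list would count as a single wide peak are counted separately here, so the number of peaks depends on where the authors' calls broke.

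Footprints were called in a smaller share of the promoter peaks than of the distal peaks of these genes. Of the 19 shared promoter peaks, 9 (47.4%) held a footprint of both replicates, against 80.9% of all shared promoter peaks. The middle height range of the promoter peaks of the 8 genes was 0.976 to 2.34 in replicate 1. Within it, 4 of 9 (44.4%) held such a footprint, against 66.6% of all shared promoter peaks in that range. Most of these 9 were of Nr2f1 and Nr2f2, and none was of Cited2 or Nr0b1. Of the 24 distal peaks, 20 (83.3%) held such a footprint, against 85.7% of all shared distal peaks. Of the 24, 18 had a gene of the 8 as nearest coding gene, 3 lay within that gene, 13 in introns, 9 between genes and 2 in exons or UTRs. The promoter peaks had a median width of 360 bp and GC content of 63.3%, and the distal peaks 200 bp and 54.0%. Across the genome, shared promoter peaks had 320 bp and 64.3%, and shared distal peaks 200 bp and 52.9%.

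Motifs were searched on both strands within 75 bp of the centre of the 24 shared distal peaks. CTCF matches were found in 4 (16.7%), against 10.5% of all shared distal peaks, and E-box words CATCTG or CAGCTG in 3 (12.5%), against 27%. In the promoter peaks of the 8 genes the E-box words were found in 6 of 19 (31.6%), against 14.9% of all shared promoter peaks, so the distal and promoter shares lay on opposite sides of the genome's. GGGCGG was found in 4 (16.7%), against 9.19%. The GATA word AGATAA and the SF-1 word CAAGGTCA were found in 0 of the 24, against 4.31% and 2.27%. A match is a string of letters and does not show a bound factor, and no match says only that the letters were not in this window. Among the distal peaks, 3 had a CTCF match centred in a footprint of both replicates, those of Cited2, Wt1 and Gata4 shown above. The AP-1 word TGANTCA was found in 1 of the 24 (4.17%), against 8.06%. At this Nr2f2 site, centred 99434 bp downstream, an AP-1 word had its centre in a footprint of both replicates. That footprint, of 6 bases, was shorter than the word.

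**Figure D4:**
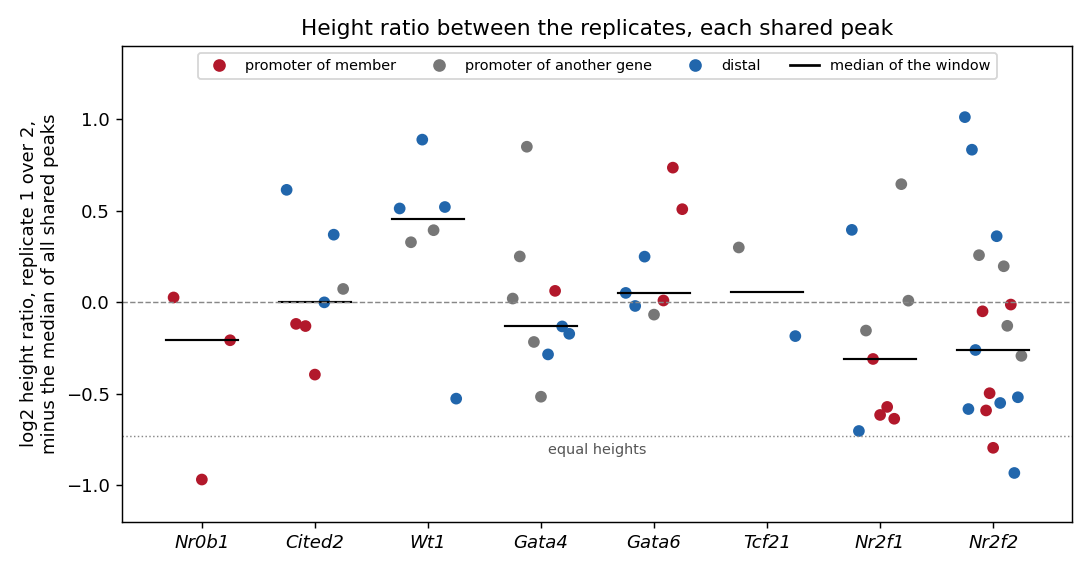
Log2 height ratio of each shared peak, replicate 1 over replicate 2, minus the median of all shared peaks, 0.73 (y axis), by gene window (x axis). Points are peaks, coloured red for promoter peaks of the gene, grey for promoter peaks of another gene and blue for distal peaks. Black lines are the medians of a window, the dashed line is the genome median and the dotted line marks equal heights. The promoter peaks of Nr2f1 lie below the dashed line, and 57 of the 60 peaks lie above the dotted line.

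Heights were compared between the replicates relative to the median of all shared peaks. The 60 shared peaks of the windows had a median log2 ratio of replicate 1 over replicate 2 of −0.04 after subtraction of that median, with a range of −0.97 to 1.01. Distal peaks had a median of −0.01 and promoter peaks of the 8 genes −0.21. The 4 promoter peaks of Nr2f1 had −0.59 and the 5 of Nr2f2 −0.50, so that their heights were more alike in the replicates than those of most peaks. In the middle height range above, promoter peaks of the 8 genes had −0.57 and all promoter peaks −0.25. That range held these 4 peaks of Nr2f1 and others mainly of Nr2f2, and none of Cited2 or Nr0b1. The value therefore largely repeats that of Nr2f1 and Nr2f2. The 3 promoter peaks of Gata6 had 0.51. Of the 60 peaks, 3 were higher in replicate 2, against 6.98% of all shared peaks, and these were 1 promoter peak each of Nr0b1 and Nr2f2 and 1 distal peak of Nr2f2.

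Sites in replicate 2 only made up a larger share in these windows than in the genome, a description with no test. They made up 21 of 134 regions (15.7%), against 4.5% of all regions, and sites in replicate 1 only made up 39.6%, against 47.3%. Of the 21, 12 lay in the window of Nr2f2, 5 in that of Wt1, 3 in that of Gata6 and 1 in that of Nr0b1. Neighbouring fragments count separately, so the number of sites depends on where the calls broke. The 4 at the Wt1 promoter lay side by side, and the longer list held 3 promoter peaks there in replicate 2. The windows of Cited2, Gata4, Tcf21 and Nr2f1 held none. Around Nr2f2, 11 of the 12 were distal, among them a group of peaks 35014 to 36357 bp downstream of the most 5′ start with heights of 0.459 to 1.21. Absence from the shorter list of replicate 1 did not always mean absence from its longer list. Of the 21 sites in replicate 2 only, 12 overlapped a longer-list peak of replicate 1, and 26 of the 53 sites in replicate 1 only overlapped one of replicate 2. Around Nr2f2 this held for 7 of the 12, and the site 35014 bp downstream had 1.95 in the longer list of replicate 1, against 1.21 in replicate 2. With the longer list in both replicates, sites in replicate 2 only made up 12.9% of the windows' regions, against 7.41% of all regions. More promoter bases at an FDR of at most 0.001 in replicate 2 than in replicate 1 were seen at 4 genes (Nr0b1, Wt1, Gata6 and Nr2f1), against 23% of protein-coding genes.

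The other 18 genes listed as regulators of the adrenal primordium had a shared promoter peak in 17 (94.4%), against 63.6% of all protein-coding genes. Lhx9, a LIM factor of the early gonad, lacked one, with 0.818 in replicate 2 and none in replicate 1, although the longer list held a peak of 0.889 in replicate 1. Their highest promoters were those of the GATA cofactor Zfpm1, at 16.1 in replicate 1 and 6.37 in replicate 2, of the homeobox gene Pknox1, at 11.6 and 4.02, and of the telomere gene Acd, at 9.34 and 4.57. Nr5a1, which encodes SF-1, had 3.24 and 2.09. The 6 genes described here with a shared promoter peak had a median of 1.91 in replicate 1 and 1.71 in replicate 2. The median was 4.81 and 2.09 over the 17, and 5.95 and 3.11 over all genes with a shared promoter peak. The difference between the lists was not tested.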

How the data were processed

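The data are DNase-seq of adrenal gland in 1 group with replicates 1 and 2. The members and gene lists were chosen with earlier results of these data known. Per the labels, the build is mm10. Alignment and calling software was not given in the sources used here. Peaks were deposited as 2 lists for each sample, made without pooling. Peak heights are a signal normalised by the authors, and 100.0% of them were multiples of a fixed step within 5% of that step. The FDR values are p-values after adjustment that the authors deposited per stretch of bases, listed under 0.05. All deposited footprints carry a p-value of 0.01. Read depth was not used here, so no counting interval is given and the precision is that of 2 replicates. Nothing says that the replicates share no animal, and their spread may be partly technical. Because mm10 is a C57BL/6J genome, CAST/EiJ alleles may give less signal at sites of strain difference (not tested).

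The shorter list was the main list. Shared peaks are merged regions with peaks of both replicates that overlap by at least 1 bp, and heights are the highest in each replicate. Starts came from GENCODE M21. CpG observed over expected was taken within 500 bp of the most 5′ start. The 10 motifs were those of GATA factors, SF-1, E-boxes, SP1, NF-Y and AP-1, spelled out in the text, the WT1 and EGR word GCGTGGG, the cAMP element TGACGTCA, and by name a nuclear receptor direct repeat and the 12-letter core of CTCF. Both strands were searched. Matches of different motifs may overlap, as those of SF-1 and the direct repeat or of SP1 and EGR. Named items were all 8 genes, the highest promoter peak and up to 3 highest shared distal peaks of each, other regulators without a shared promoter peak and the 3 highest, and genes whose starts lie near a described peak. Further peaks (in particular those with a CTCF match, those in 1 replicate only and the Gata4 intronic site) and Nr5a1 were named after their values were seen. A further listed marker gene is not reported here. The shares of genes and peaks given beside those of the 8 genes are descriptions and carry no test. Python 3.11.15 with numpy 2.4.6, pandas 2.3.3 and matplotlib 3.10.9 was used, and merging, overlap and motif search were checked on simulated data. Alternatives were the longer list, stricter overlap and height, other promoter reaches, coding starts, smaller windows, the nearest gene, a stricter footprint and each replicate alone.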

Additional observations from a re-analysis of the deposited data

How the results depend on the processing

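Of 45 recomputed values of 5 results, 30 stayed close to the reported value, within 1.5 times for counts. The number of genes with a shared promoter peak (6) ranged from 4 with the highest 50% of peaks to 7 with the longer list, and was 7 and 6 with 1 replicate alone. The 19 shared promoter peaks fell to 12 with the highest 50% of peaks. The 24 shared distal peaks became 52 with the longer list, 10 with the highest 50% of peaks and 15 within 50 kb, and numbered 70 in replicate 1 alone and 38 in replicate 2 alone. The share of distal peaks with a footprint of both replicates (83.3%) was 55.8% with the longer list, 90.0% with the highest 50% of peaks and with a promoter reach of 2 kb, 71.0% with a reach of 500 bp, 80.0% with coding starts and within 50 kb, and 77.8% where a gene of the 8 was nearest. It was 87.5% with footprints of replicate 1 alone and 91.7% with those of replicate 2 alone. The cause of these shifts was not tested, although the longer list adds lower peaks by its construction. The median centred log2 height ratio (−0.04) lay between −0.12 and −0.02 under the 5 alternatives that change which peaks enter it, and the other 3, which only sort peaks into promoter and distal, cannot change it. No paired analysis was possible because there is 1 group and no groups to pair. What depth allows at the low promoters of Wt1 and Tcf21 cannot be stated, since read depth was not used here.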

Other observations

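Some of the highest open sites in the windows belonged to neighbouring genes. In the window of Gata4, the promoter of Fdft1, the squalene synthase gene of cholesterol synthesis, reached 13.2 in replicate 1 and 4.41 in replicate 2, and that of Ctsb, a lysosomal protease gene, reached 6.45 and 3.83. In the window of Tcf21, the promoter of Tbpl1, a relative of the TATA-binding protein, reached 9.27 and 4.54. The highest promoter peak of Gata4 itself had 1.70 and 0.979. The promoter of Txlnb, in the window of Cited2, had 1.45 and 0.831, and that of Them7, in the window of Wt1, had 2.35 and 1.08.

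Among the distal peaks around Gata4 that the shorter list held in replicate 1 only, the highest had 1.97, at 147751 bp downstream of the most 5′ start, beside the promoter peak of Ctsb centred at 149051 bp. The longer list held this site in replicate 2 at 0.899, and it had 1 footprint of both replicates.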
